A study of Mus musculus with 8 samples.

Results

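Eosinophil lineage genes were expressed in GM-CSF cultures of WT bone marrow, and most of them stood at a small part of that level in the same cultures of 3xGrk-/- bone marrow, with Siglecf as the exception without LPS and Ear2 with LPS. These are 10 listed genes (Prg2, Prg3, Epx, Ear1, Ear2, Ear6, Il5ra, Siglecf, Ccr3 and Alox15) out of 47937 gene IDs in the count tables, 22515 of which had a count in any library. The genes were chosen by their counts in 3xGrk-/- against WT libraries, without and with LPS, so their difference between the genotypes is given here as a description and without a test. The response to LPS within each genotype was tested, with the limit that the list was made with these libraries in view. The difference between the responses of the genotypes equals that between the genotype gaps with and without LPS and is therefore also a description.

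BMDCs (bone marrow-derived dendritic cells) were grown for 8 to 9 days in 20 ng/ml GM-CSF and either left unstimulated or stimulated with 20 ng/ml LPS, a bacterial cell wall component, for 24 h. 3xGrk-/- cells came from Grk3-/- mice that also carried Vav-iCre and the floxed alleles Grk2 fl/fl and Grk6 fl/fl, with a Cre that is active from early blood cell precursors on, while WT cells came from Cre-negative controls; all mice were adult (older than 8 weeks) and on a C57BL6/J background. GRK2, GRK3 and GRK6 are kinases that switch off activated G-protein coupled receptors, among them chemokine receptors such as CCR3. The 8 libraries fall into 4 groups of 2: unstimulated WT, unstimulated 3xGrk-/-, LPS-stimulated WT and LPS-stimulated 3xGrk-/-. The methods speak of technical repeats of the RNA, and nothing says that the 2 libraries of a group came from separate cultures or animals, so every error below measures the spread between libraries only.

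Read counts on genes ranged from 4713305 to 6933358 per library. The targeted genes were lower in every 3xGrk-/- library than in every WT library of the same stimulation, with a log2 fold change of -1.11 unstimulated and -1.89 with LPS for Grk2 and of -1.19 and -1.54 for Grk6. Grk3, a germline knockout, still had counts in all libraries and differed by only -0.36 and -0.42. A gene that overlaps ribosomal RNA, Gm42418, had more counts in replicate 2 of every group, most of all in LPS-stimulated 3xGrk-/- cells (149727 against 26853).

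Eosinophils are granulocytes that mature in bone marrow under IL-5, IL-3 and GM-CSF and are best known for allergic inflammation and defense against helminths. Their granules are packed with cationic proteins: major basic protein, eosinophil peroxidase and, in the mouse, a family of eosinophil-associated ribonucleases (Ear) that has expanded by gene duplication. GATA-1, C/EBP factors and PU.1 are the transcription factors classically tied to this lineage. GM-CSF cultures of whole bone marrow are not sorted and can hold granulocytes beside dendritic cells and macrophages; in RNA from such bulk cultures, fewer cells of a type and less RNA per cell cannot be told apart. Some of the 10 genes are not limited to eosinophils: Siglecf and Ear2 are also known from alveolar macrophages, and Alox15 from resident and alternatively activated macrophages.

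The stretches upstream of the start site are shown for 4 genes whose behavior carries the results below: Prg3, a granule gene with 2 or 3 counts in each 3xGrk-/- library, and the 3 Ear genes, of which a single one, Ear2, passed the test for a response to LPS in these cells. Each is the 250 bases before the start in RefSeq (GRCm38.p6), 5′ to 3′ in the direction of the gene, with capitals for matches on either strand to a GATA motif (GATAA) or to a C/EBP-type motif (TTGCNNAA).
Prg3, chr2:84987965-84988214, plus strand: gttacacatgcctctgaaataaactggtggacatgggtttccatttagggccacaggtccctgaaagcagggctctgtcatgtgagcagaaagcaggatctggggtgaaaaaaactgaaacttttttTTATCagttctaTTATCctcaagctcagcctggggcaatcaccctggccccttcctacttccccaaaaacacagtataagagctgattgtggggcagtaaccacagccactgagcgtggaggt
Ear1, chr14:43819640-43819889, minus strand: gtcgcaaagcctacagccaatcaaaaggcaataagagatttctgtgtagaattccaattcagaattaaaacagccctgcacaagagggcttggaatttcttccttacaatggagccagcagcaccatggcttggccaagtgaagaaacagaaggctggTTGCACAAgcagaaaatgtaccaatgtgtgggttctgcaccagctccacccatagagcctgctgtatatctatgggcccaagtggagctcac
Ear2, chr14:44102404-44102653, plus strand: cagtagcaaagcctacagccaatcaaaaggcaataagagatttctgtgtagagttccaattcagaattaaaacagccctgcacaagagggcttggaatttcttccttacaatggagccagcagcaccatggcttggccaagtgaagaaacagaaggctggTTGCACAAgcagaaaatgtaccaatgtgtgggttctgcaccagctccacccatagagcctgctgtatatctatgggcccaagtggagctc
Ear6, chr14:51853518-51853767, plus strand: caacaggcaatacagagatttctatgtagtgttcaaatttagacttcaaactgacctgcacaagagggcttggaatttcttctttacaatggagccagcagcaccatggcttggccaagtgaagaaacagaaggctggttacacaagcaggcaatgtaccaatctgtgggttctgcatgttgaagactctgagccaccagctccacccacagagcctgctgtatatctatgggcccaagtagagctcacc
The windows of Ear1 and Ear2 were 97.6% identical (246 of 252 aligned positions), while Ear6 matched them at 78.2% and 77.7%. Ear1 and Ear2 each hold 1 C/EBP-type match, in the same surrounding sequence, and Ear6 holds none. Prg3 holds 2 GATA matches, both on the reverse strand. Among the 8 genes with a window in the table (Prg2 and Alox15 have none), GATAA was found in 3 (Prg3, Il5ra and Ccr3) and TTGCNNAA in 2, against 22.6% and 9.56% of all 32851 windows of this length. The gene spans printed further on are those of GENCODE, which begin upstream of the RefSeq start for Ear1 and Ear6, so that these 2 windows reach into or lie within the GENCODE span. AGGAAG, a core of PU.1-type sites, was found in 4 of the 8 (Prg3, Ear1, Ear2 and Siglecf) and in 29.5% of all windows. None of these matches overlap each other, and a match is a description of these bases, not a binding site.

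The granule protein genes include Prg2, the most abundant of the 10 in WT cells, and Prg3 and Epx, which had the widest gaps to unstimulated 3xGrk-/- cells. Prg2 encodes major basic protein, the main protein of the granule core; it lies on chromosome 2 (84980461 to 84983632, plus strand, GRCm38). Unstimulated WT libraries had 3134 and 4472 Prg2 counts and LPS-stimulated WT libraries 3254 and 3971, against 212 and 183 in unstimulated and 184 and 188 in LPS-stimulated 3xGrk-/- libraries. As CPM, counts scaled to library size on a common TMM scale for all 8 libraries, Prg2 stood at 612.8 ± 19.8 (SD, n = 2) in unstimulated WT and at 31.7 ± 0.0457 in unstimulated 3xGrk-/- cells, and at 602.4 ± 17.0 and 32.0 ± 2.1 with LPS. The 3xGrk-/- level was thus 5.18% and 5.31% of the WT level, a log2 fold change of -4.27 (SE 0.0580) without and -4.24 (SE 0.0762) with LPS.

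Prg3 encodes a homolog of major basic protein and lies next to Prg2 on chromosome 2 (84988215 to 84993886). It had 117 and 175 counts in unstimulated and 93 and 112 in LPS-stimulated WT libraries. In 3xGrk-/- libraries only 2 and 2 counts remained unstimulated and 3 and 2 with LPS. WT exceeded 3xGrk-/- cells 73.4 times without LPS (95% counting interval 28.4 to 271) and 40.0 times with LPS (16.8 to 124). The intervals cover counting error only.

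Epx encodes eosinophil peroxidase, a heme enzyme that makes oxidants from halides and is regarded as the most lineage-restricted of the granule proteins (chromosome 11, 87864000 to 87875536, minus strand). Its CPM in the 8 libraries were 277.4 and 303.6 in unstimulated WT, 5.38 and 4.34 in unstimulated 3xGrk-/-, 276.2 and 323.4 in LPS-stimulated WT and 4.18 and 3.08 in LPS-stimulated 3xGrk-/- cells. The log2 fold change between the genotypes was -5.89 (SE 0.0955) unstimulated and -6.37 (SE 0.133) with LPS. Epx therefore differed more than Prg2: per 100 counts of Prg2 there were 46.3 to 52.6 counts of Epx in the WT libraries and 10.1 to 17.0 in the 3xGrk-/- libraries, with no overlap. Prg3 gave 2.82 to 3.91 per 100 Prg2 counts in WT and 0.943 to 1.63 in 3xGrk-/- libraries.

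Genes next to these loci are given for context. Ssrp1, the third gene downstream of Prg2, had 627 and 878 counts in unstimulated WT and 705 and 630 in unstimulated 3xGrk-/- libraries. Slc43a3, directly upstream of Prg2, had 85 and 162 against 78 and 62, and with LPS 43 and 43 against 136 and 167. Next to Epx lies Mks1 with 42 and 56 against 56 and 49 counts. The other 2 peroxidase genes of the cluster were scarce: Mpo (myeloperoxidase, of neutrophils and their precursors) had between 1 and 29 counts per library and Lpo at most 1.

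**Figure D1:**
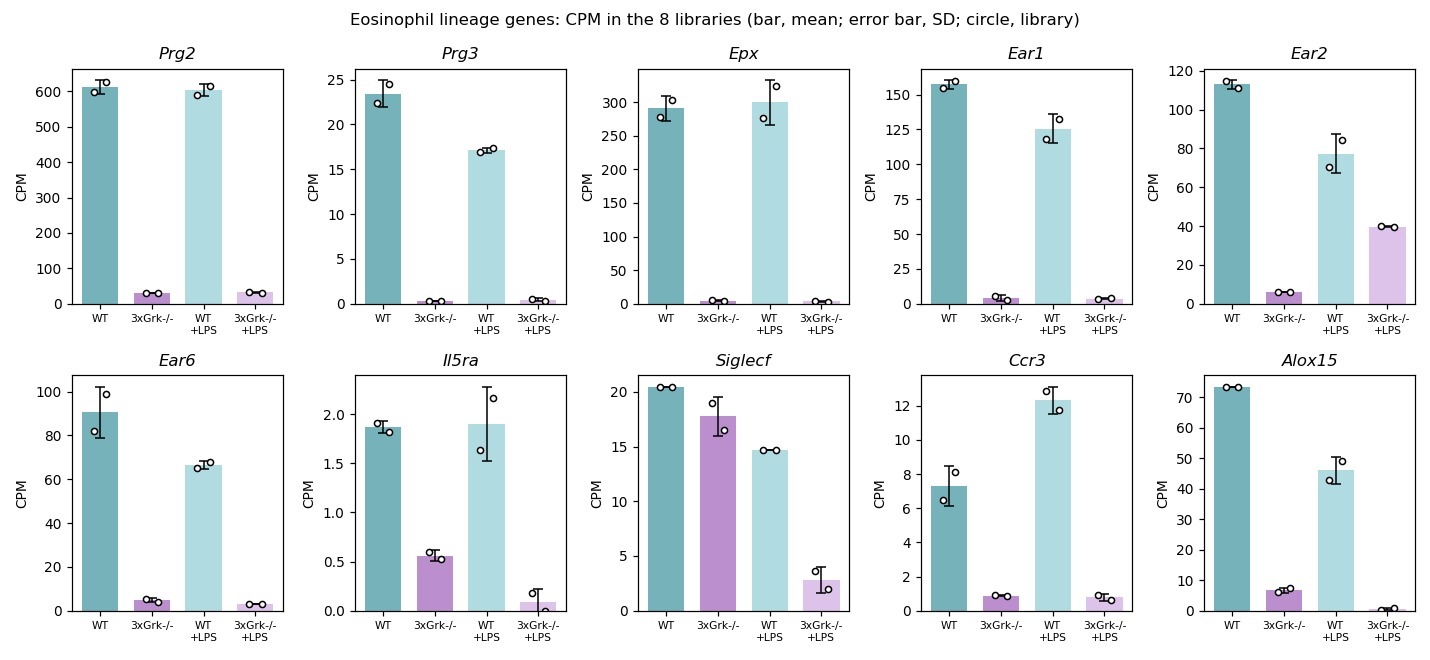
CPM (TMM scale, linear axes from 0) of the 10 eosinophil lineage genes in the 8 libraries, 1 panel per gene; bars are group means, error bars the SD of 2 libraries and circles the libraries. In each panel the 3xGrk-/- libraries lie below the WT libraries of the same stimulation; Siglecf comes closest without LPS (17.7 against 20.5 CPM) and Ear2 with LPS (39.7 against 77.4 CPM).

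The 3 Ear genes encode secreted ribonucleases, related to the human eosinophil-derived neurotoxin and eosinophil cationic protein, and all lie on chromosome 14. Ear1 (43818765 to 43875517, minus strand) had 811 and 1139 counts in unstimulated WT and 37 and 16 in unstimulated 3xGrk-/- libraries, and with LPS 652 and 858 against 18 and 25. Its log2 fold change between the genotypes was -5.20 (SE 0.118) without and -5.08 (SE 0.146) with LPS. Ear6 (51853699 to 51854643, plus strand) had 430 and 705 against 36 and 24 counts unstimulated and 359 and 439 against 18 and 20 with LPS. Its log2 fold change was -4.24 (SE 0.132) and -4.35 (SE 0.158). For both genes the gaps without and with LPS differed by less than the SE of their difference.

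Ear2 (44102654 to 44103534, plus strand) did not keep to this pattern. It had 600 and 794 counts in unstimulated WT, 40 and 35 in unstimulated 3xGrk-/-, 388 and 545 in LPS-stimulated WT and 220 and 243 in LPS-stimulated 3xGrk-/- libraries. Without LPS its level in 3xGrk-/- cells was 5.34% of WT (log2 fold change -4.22, SE 0.119), close to Ear6 and above Ear1 at 2.64%, but with LPS it was 51.3% of WT (-0.97, SE 0.105). Both LPS-stimulated 3xGrk-/- libraries still lay below both LPS-stimulated WT libraries. The call with LPS was lost when a change of at least 1 on the log2 scale or a coefficient of variation of 0.4 was required.

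Ear1 and Ear2 share stretches of transcript with each other and with further Ear genes and pseudogenes, and the way reads with several matches were counted is not given. Of the 50-base words in their transcripts, 57.4% of those of Ear1 and 41.5% of those of Ear2 occur in another gene's transcripts (mainly Ear-ps9, Ear10 and each other). Of the 100-base words the shares were 23.9% for Ear1, with Ear-ps9 and Ear10, and 13.9% for Ear2, with Ear10 and Ear-ps2. For Ear6 these shares were 0.954% and 0%. The individual levels of Ear1 and Ear2 are thus uncertain, so the family was also summed over Ear1, Ear2, Ear6, Ear10, Ear14, Rnase2a and Rnase2b. Ear-ps9 had at most 20 counts in a library, and each other Ear pseudogene at most 1. Such a sum does not restore reads that were discarded, and their part was not tested. The sum was 361 ± 12.8 CPM in unstimulated WT, 15.4 ± 2.69 in unstimulated 3xGrk-/-, 269.7 ± 22.1 in LPS-stimulated WT and 50.3 ± 1.75 in LPS-stimulated 3xGrk-/- cells. The log2 fold change of the sum between the genotypes was -4.53 (SE 0.0720) unstimulated and -2.42 (SE 0.0804) with LPS.

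Of the other family members, Ear10 had at most 2 counts in a library, and Ear14 and Rnase2b had 0 counts in every library. Rnase2a, which shares no 50-base word with another gene, had 14 and 30 counts in LPS-stimulated 3xGrk-/- libraries and 3 or fewer in the 6 others. It passed the filter on low counts only through the LPS-stimulated 3xGrk-/- libraries. Its rise with LPS in 3xGrk-/- cells (log2 fold change 3.16, SE 0.581) is therefore a description, given without a p. The response of Rnase2a was not shown to differ from that in WT cells (difference 3.13, SE 2.49, edgeR adjusted p = 0.364). Gm8113, a predicted gene between Ear1 and Ear2, had 75 and 136 counts in unstimulated WT and 3 and 4 in unstimulated 3xGrk-/- libraries, and 31 and 28 against 2 and 7 with LPS.

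**Figure D2:**
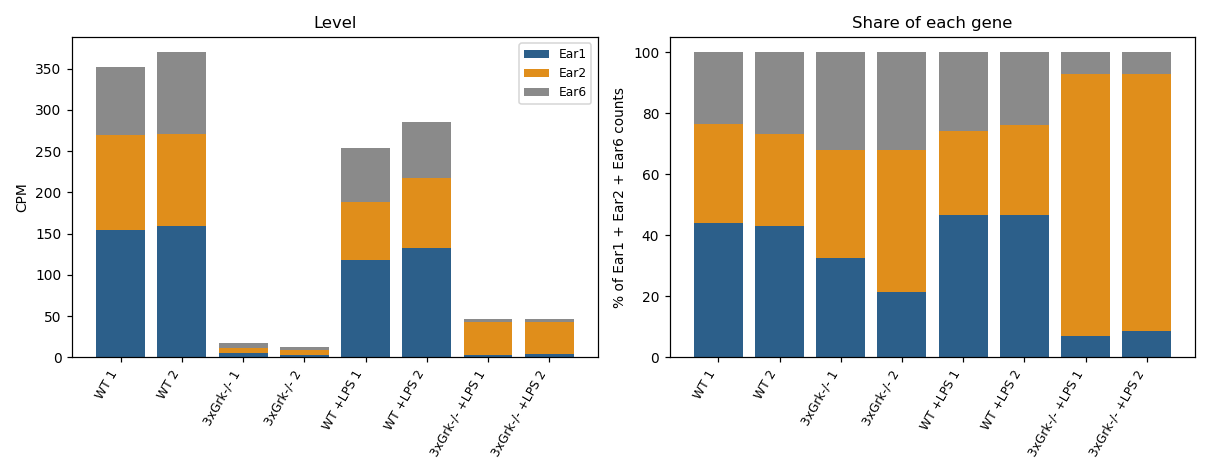
Ear1, Ear2 and Ear6 stacked per library, on the left in CPM and on the right as percent of the counts of the 3 genes together; the colors of the left key hold for both panels. The orange Ear2 part makes up 27.7 to 32.6% of each WT bar but 85.9% and 84.4% of the bars of 3xGrk-/- cells with LPS.

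The composition of the Ear transcripts shifted accordingly. Ear2 took 32.6% and 30.1% of the counts of the 3 genes in unstimulated WT, 27.7% and 29.6% in LPS-stimulated WT, and 35.4% and 46.7% in unstimulated 3xGrk-/- libraries. In LPS-stimulated 3xGrk-/- libraries it took 85.9% (95% Clopper-Pearson interval 81.1 to 90.0%) and 84.4% (79.7 to 88.4%).

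In WT cells the surface receptors were, per kilobase of exon, the least abundant of the 10. Il5ra encodes the receptor chain that binds IL-5, the main survival factor of eosinophils (chromosome 6, 106710357 to 106749037, minus strand). It had 10 and 13 counts in unstimulated WT, 4 and 3 in unstimulated 3xGrk-/-, 9 and 14 in LPS-stimulated WT, and 1 and 0 in LPS-stimulated 3xGrk-/- libraries. WT exceeded 3xGrk-/- cells 3.31 times without LPS (counting interval 1.37 to 9.12) and 22.4 times with LPS (3.64 to 923). The groups did not overlap, but the unstimulated call was lost in DESeq2 and without each of the 4 libraries in turn (log2 fold change -1.79 to -1.60), and the counts are too few to place its size.

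Ccr3 encodes the eotaxin receptor, through which eosinophils migrate into tissue (chromosome 9, 124021972 to 124031689, plus strand). WT libraries had 34 and 58 counts unstimulated and 71 and 76 with LPS, while 3xGrk-/- libraries had 6 and 5, and 5 and 4. The log2 fold change between the genotypes was -3.04 (SE 0.361) and -3.96 (SE 0.340).

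Siglecf encodes a sialic acid-binding inhibitory receptor of mouse eosinophils (chromosome 7, 43351341 to 43359531, plus strand) and was the exception among the 10 genes without LPS. Its CPM were 20.4 and 20.5 in unstimulated WT and 19.0 and 16.5 in unstimulated 3xGrk-/- libraries, a log2 fold change of -0.20 (SE 0.140). With LPS it stood at 14.7 in both WT libraries and at 3.64 and 1.95 in the 3xGrk-/- libraries, a log2 fold change of -2.41 (SE 0.259). The gap between the genotypes was thus small without LPS and wide with it.

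Alox15 encodes a lipoxygenase that oxidizes arachidonic acid and linoleic acid (chromosome 11, 70344152 to 70352031, minus strand). It had 384 and 524 counts in unstimulated WT, 41 and 42 in unstimulated 3xGrk-/-, 236 and 318 in LPS-stimulated WT and 2 and 5 in LPS-stimulated 3xGrk-/- libraries. The log2 fold change between the genotypes was -3.46 (SE 0.131) without and -6.22 (SE 0.261) with LPS. On chromosome 11, its neighbor Pelp1 had 216 and 320 against 228 and 191 counts unstimulated, and Arrb2, which encodes an arrestin that binds GRK-phosphorylated receptors, had 1798 and 2336 against 2771 and 2373.

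Counted together, 9 of the 10 genes were called lower in unstimulated 3xGrk-/- cells (edgeR, adjusted p under 0.05), where 22.7% of the 12000 genes tested were called lower, and all 10 with LPS, where 24% of 11830 were. A log2 fold change of -3 or lower with that call was reached by 8 of the 10 in each comparison, against 0.675% and 0.617% of all genes. The groups did not overlap for any of the 10 genes, as for 34.9% and 36.6% of all genes in this direction. These counts follow from how the genes were chosen, and nothing is read from them. The median log2 fold change of the 10 genes was -4.23 and -4.29, and that of all genes was close to 0. All 10 genes passed the filter on low counts, but 3 had fewer than 10 counts in both unstimulated and 4 in both LPS-stimulated 3xGrk-/- libraries. Summed, the 10 genes made up 1390 ± 53.7 CPM in unstimulated WT, 77.8 ± 4.43 in unstimulated 3xGrk-/-, 1264 ± 76.8 in LPS-stimulated WT and 86.9 ± 4.11 in LPS-stimulated 3xGrk-/- cells.

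Per kilobase of exon, so that genes can be compared, the order in unstimulated WT cells was Prg2 (731 ± 23.6 CPM per kb), Ear1 (215), Ear2 (157), Epx (106), Ear6 (95.7), Alox15 (29.9), Prg3 (24.7), Siglecf (7.33), Ccr3 (2.23) and Il5ra (0.522). Epx and Ear6 were the only neighbors in this order whose libraries overlapped. In unstimulated 3xGrk-/- cells Prg2 was still first (37.9 CPM per kb), Siglecf was the third (6.36), with libraries that overlapped those of Ear1, and Epx the seventh (1.78). In LPS-stimulated 3xGrk-/- cells Ear2 was first (55.2 CPM per kb), ahead of Prg2 (38.1), without overlap between their libraries. The order in LPS-stimulated WT cells kept Prg2 and Ear1 at the head, followed by Epx and Ear2, which overlapped.

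The response to LPS was a second, separate question: how did these genes change when the cultures were stimulated? In WT cells, LPS lowered 6 of the 10 genes and raised 1, each by less than 1 on the log2 scale; with the coefficient of variation set to 0.4, none of these 7 calls remained (adjusted p = 0.703 to 0.954). Of all 12541 genes tested, 30.8% fell and 29.5% rose. Ear1 fell by 0.32 (SE 0.0756, adjusted p = 0.000551), Ear2 by 0.54 (SE 0.0803, adjusted p = 1.44e-06), Ear6 by 0.45 (SE 0.0902, adjusted p = 9.17e-05) and Alox15 by 0.67 (SE 0.0936, adjusted p = 5.22e-07) on the log2 scale. Prg3 fell by 0.46 (adjusted p = 0.0041) and Siglecf by 0.48 (adjusted p = 0.00768), while Ccr3 rose by 0.72 (SE 0.193, adjusted p = 0.00192). These last 3 calls were lost with DESeq2 (adjusted p = 0.152, 0.1 and 0.0848), and that of Prg3 also without replicate 2 of unstimulated WT (log2 fold change -0.38). Prg2, Epx and Il5ra did not pass the test (-0.02, 0.05 and 0.05; adjusted p = 0.692, 0.573 and 0.937), though Epx did without replicate 1 of LPS-stimulated WT (0.16, adjusted p = 0.0151). With library size scaling, under which the median of all genes was -0.23, Prg2 (-0.24, adjusted p = 0.000205) and Epx (-0.17, adjusted p = 0.0246) were called lower. All of these responses share their WT libraries with the genotype comparison.

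In 3xGrk-/- cells, 2 of the 10 genes fell and 1 rose with LPS, against 27.4% and 28% of all genes. Ear2 rose by 2.71 on the log2 scale (SE 0.153, edgeR adjusted p = 5.72e-15), to 658% of its unstimulated level, in both libraries. Siglecf fell by 2.69 (SE 0.228, adjusted p = 4.11e-11) and Alox15 by 3.43 (SE 0.397, adjusted p = 1.82e-08). Prg2, with a change of 0.01 (SE 0.0903, adjusted p = 0.966), did not pass. Epx (-0.44, adjusted p = 0.19), Ear1 (-0.21, adjusted p = 0.585), Ear6 (-0.56, adjusted p = 0.109), Il5ra (-2.45, adjusted p = 0.066), Ccr3 (-0.19, adjusted p = 0.814) and Prg3 (0.39, adjusted p = 0.735) did not pass either, with SEs of 0.284 to 1.24. Il5ra, Ccr3 and Prg3 had 6 counts or fewer in each 3xGrk-/- library and passed the filter on low counts through WT libraries. Their tests could hardly show a response in 3xGrk-/- cells, so nothing is read from them. With library size scaling Epx (-0.66), Ear6 (-0.78) and Il5ra (-2.64) were called lower. Ear2 was thus the single one of the 3 Ear genes that passed the test in these cells.

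The responses of the genotypes to LPS were then set side by side, as the interaction of genotype and LPS in a single fit of the 8 libraries; no p is given, since the same genotype gaps served to choose the genes. The call rule was met by 3 of the 10 genes and by 32.5% of all genes, from which nothing is read. The difference, response in 3xGrk-/- minus response in WT cells, was 3.25 for Ear2 (SE 0.174), -2.21 for Siglecf (SE 0.287) and -2.76 for Alox15 (SE 0.433). For Ear2 the responses had opposite signs, while Siglecf and Alox15 fell in both genotypes. The summed counts of the Ear genes, without the pseudogenes, gave a difference of 2.11 (SE 0.130), from a fall of 0.42 in WT and a rise of 1.69 in 3xGrk-/- cells. Prg2, with the most counts of the 10 genes in WT, had a difference of 0.03 with an SE of 0.104.

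**Figure D3:**
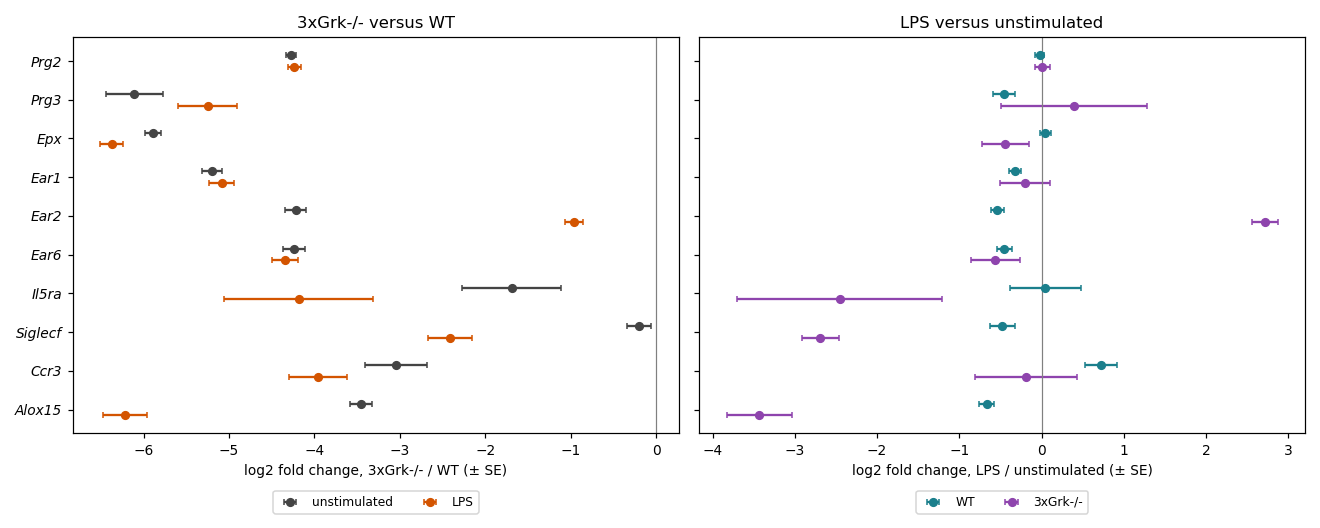
Log2 fold changes (points) with their SE (bars) for the 10 genes, on the left 3xGrk-/- against WT without and with LPS, on the right LPS against unstimulated in WT and in 3xGrk-/- cells. Ear2 is the gene whose 2 points lie farthest apart on the right (-0.54 in WT, 2.71 in 3xGrk-/- cells); the points of Siglecf (-0.48 and -2.69) and Alox15 (-0.67 and -3.43) lie lower in 3xGrk-/- cells.

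Across the 8 libraries the granule genes ran together. Of the 10104 genes expressed highly enough to compare, the 5 whose log2 CPM followed Epx most closely were Prg2 (Pearson r = 0.998), Tceanc2 (0.997), Chil1 (0.997), Ear6 (0.995) and Rtn1 (0.994), and 11 genes had r above 0.99. For Prg2 they were Epx, Prg3 (0.997), Rtn1 (0.995), Tceanc2 (0.994) and Ear1 (0.994). These r are a description over 4 groups of 2 libraries each and mostly reflect 2 levels, WT and 3xGrk-/-. Tceanc2 had 148 and 206 counts in unstimulated WT and 25 and 24 in unstimulated 3xGrk-/- libraries, and Chil1, which encodes a chitinase-like protein, 43 and 60 against 13 and 8.

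Transcription factors of the lineage did not move as a block. Of 14 on the list, 4 were lower and 4 higher in unstimulated 3xGrk-/- cells among the 13 tested (all genes: 22.7% lower and 22.1% higher, with LPS 24% and 24.7%), with a median log2 fold change of -0.01, and 7 were lower and 4 higher with LPS (median -0.24). Gata1, the factor of eosinophil commitment, was lower: it had 16 and 17 counts in unstimulated WT and 3 and 2 in unstimulated 3xGrk-/- libraries, and 9 and 26 against 0 and 2 with LPS (log2 fold change without LPS -2.67, SE 0.572). Cebpe, needed for granulocyte granules, was lower, at -1.35 (SE 0.196) and -2.32 (SE 0.231). Gata2 was higher without LPS (1.41, SE 0.169) and at 0.27 (SE 0.193, adjusted p = 0.262) with it. Cebpb, a factor of monocytes and of emergency granulopoiesis, was higher by 2.47 (SE 0.0958) and 3.08 (SE 0.138), and Cebpa lower, at -0.53 (SE 0.0865) without and higher by 1.04 (SE 0.194) with LPS.

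Receptors and signaling genes downstream of the growth factors went both ways. Beside Il5ra, which was lower as given above, of 10 cytokine receptor and signaling genes, 7 were higher and 2 lower in unstimulated and 6 higher and 4 lower in LPS-stimulated 3xGrk-/- cells (medians 0.41 and 0.40). Of all genes, 22.1% were higher and 22.7% lower unstimulated, and 24.7% and 24% with LPS. Csf2ra and Csf2rb, the chains of the GM-CSF receptor, the second of which also serves IL-5 and IL-3, were higher by 0.59 (SE 0.0432) and 0.57 (SE 0.0260) unstimulated and by 0.52 and 0.66 with LPS. Il1rl1, the receptor of IL-33, was lower, at -1.62 (SE 0.113) and -2.15 (SE 0.249). Of 14 other surface and effector genes of eosinophils, 6 were higher in each comparison and 4 and 3 lower. C3ar1, the C3a receptor, was higher (2.21, SE 0.0908, and 2.93, SE 0.0738) and S1pr4, a sphingosine-1-phosphate receptor, lower (-1.18, SE 0.250, and -1.60, SE 0.434). Ptgdr2 and Hrh4, the prostaglandin D and histamine receptors of eosinophils, had at most 2 counts and 1 count per library, in WT as well.

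Among the CCR3 ligands and eosinophil cytokines, the eotaxin gene Ccl11 and the cytokine genes Il5 and Il3 were at 0 counts in every library. Ccl7, a ligand shared by CCR3 and other receptors, was higher in 3xGrk-/- cells by 4.10 (SE 0.198) unstimulated and 6.18 (SE 0.101) with LPS, where it had 2205 and 2471 against 29 and 37 counts. Ccl5 differed by -0.11 and -0.32. Without LPS only 3 genes of this list could be tested. With LPS, 6 of the 7 that could be tested were higher and 1 was lower in 3xGrk-/- cells (all genes: 24.7% and 24%). Ccl12 had 89 and 128 counts against 0 and 1 in WT. Most of the 7, Ccl12 among them, passed the filter on low counts only through LPS-stimulated 3xGrk-/- libraries, where they were high. Their direction was thus set by the filter, and nothing is read from the count.

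Markers of other cells moved with the genotype too. The counts here and in the next paragraph stand beside the shares of all genes. Those were 22.7% lower and 22.1% higher unstimulated, and 24% and 24.7% with LPS. Of 11 basophil and mast cell markers, 3 were lower and 1 higher among 6 tested in both comparisons: Mcpt8, a basophil protease, was lower (-1.54, SE 0.334, and -1.24, SE 0.336), Cpa3 stood at 0.17 and -0.27, and Hdc, which makes histamine, was higher (0.92, SE 0.172, and 2.20, SE 0.0741). Their summed level was 75.1 to 77.6 CPM in unstimulated WT, 81.7 to 82.5 in unstimulated 3xGrk-/-, 136.6 to 148.1 in LPS-stimulated WT and 324.3 to 339.2 in LPS-stimulated 3xGrk-/- cells, and Mcpt4 was at 0 in every library. Hdc made up the gap with LPS: without it, a sum added after the values were seen, the list stood at 81.6 to 91.6 CPM in LPS-stimulated WT and 70.4 to 79.8 in LPS-stimulated 3xGrk-/- cells. Of 13 neutrophil and promyelocyte markers, 6 were lower and 1 higher unstimulated, and 9 lower and 1 higher of 12 tested with LPS; their sum nevertheless ran from 837.3 to 878.3 CPM in unstimulated WT and from 1280 to 1311 in unstimulated 3xGrk-/- cells (372.3 to 430.4 and 553.9 to 574.6 with LPS). Mmp8 was higher (2.84, SE 0.0462, and 3.85, SE 0.0797), and without it the sum was lower in 3xGrk-/- cells, 731.4 to 774.9 against 538 to 553.5 CPM unstimulated and 347.5 to 404.7 against 191.4 to 207.7 with LPS. Elane stood at 0.33 (SE 0.299) and -0.49 (SE 0.395), neither of which passed the test, and Mpo and Camp were lower. None of the neutrophil markers was at 0 in all libraries.

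All 9 macrophage markers were higher in LPS-stimulated 3xGrk-/- cells and 6 of 9 in unstimulated ones, where 2 were lower; their sum was 2099 to 2116 CPM in unstimulated WT and 8526 to 8556 in unstimulated 3xGrk-/- cells, and 675.1 to 691.3 against 7283 to 7399 with LPS. Without Lyz2, the most abundant of them, sums added after the values were seen were 761.6 to 793.4 CPM against 1433 to 1488 unstimulated and 393.9 to 399.6 against 2725 to 2785 with LPS. C1qa (-1.61) and Fcgr1 (-0.64) were lower without LPS and higher with it (2.77 and 3.92). Higher in both comparisons were, for example, Adgre1 (1.36 and 2.48), Lyz2 (2.41 and 4.0), Csf1r (0.88 and 3.15) and Cd68 (2.09 and 3.99). Of 13 markers of alveolar-type macrophages, the cells that share Siglecf and Ear2 with eosinophils, 6 were higher and 3 lower unstimulated, and 6 higher and 4 lower with LPS. Their sum was 2735 to 2750 CPM in unstimulated WT, 5312 to 5346 in unstimulated 3xGrk-/-, 2532 to 2619 in LPS-stimulated WT and 2942 to 2944 in LPS-stimulated 3xGrk-/- cells, with Cidec and Krt19 at 0 throughout. Lpl, a lipase, made up the gap in the sum (2.32, SE 0.0308, and 1.68, SE 0.0628). Without it, likewise added after the values were seen, the list stood at 2076 to 2109 CPM in WT and 2075 to 2080 in 3xGrk-/- cells unstimulated, and at 2299 to 2401 and 2206 to 2237 with LPS. Single genes beside Lpl still differed in both directions. Atp6v0d2 stood at 485% of WT without and 2667% with LPS, and Car4 at 352% and 210%. Pparg was lower without (-1.21) and higher with LPS (1.5), Fabp4 higher in both (1.03 and 1.65) and Plet1 lower in both (-1.47 and -3.18). Of the 9 DC markers, 6 were lower and 3 higher unstimulated, and 6 lower and 2 higher of 8 tested with LPS; Zbtb46 (-0.42 and -0.40) and H2-Ab1 (-1.67 and -0.42) were lower and Flt3 (0.95 and 1.35) higher in both. The part of these other cell types in the levels of the eosinophil lineage genes was not tested.

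**Figure D4:**
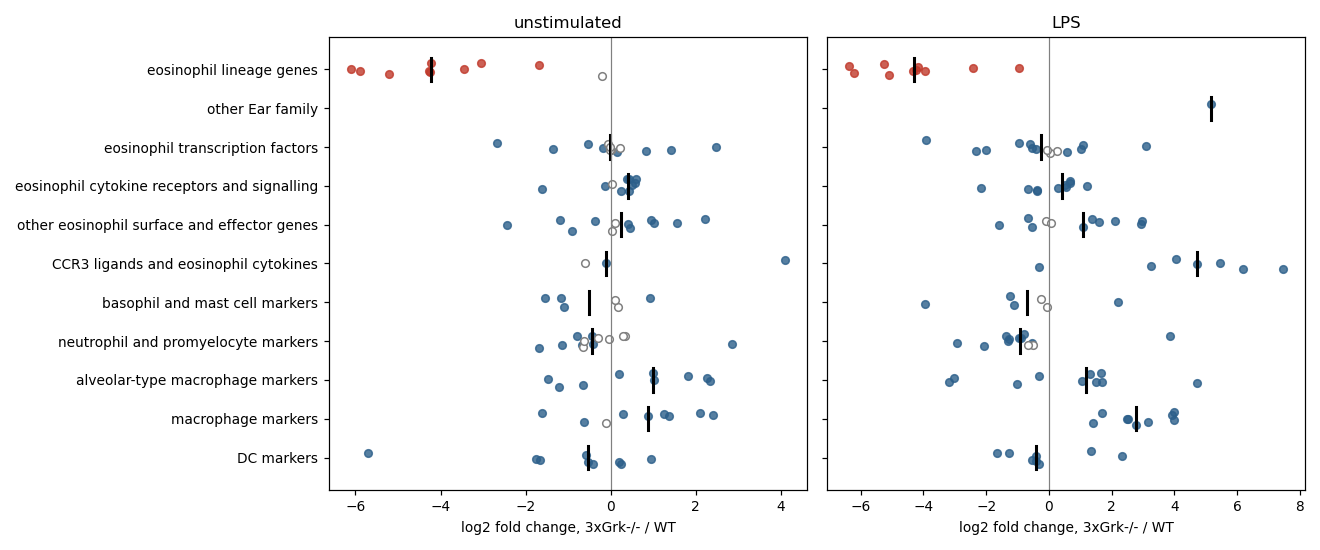
Log2 fold changes of 3xGrk-/- against WT for the 10 eosinophil lineage genes (red) and the other gene lists (blue), left without and right with LPS; each point is a tested gene, filled where the adjusted p is under 0.05 and open otherwise, and black bars are list medians. The eosinophil lineage genes have medians of -4.23 and -4.29, while the transcription factors center at -0.01 and -0.24. The 10 genes were chosen by this gap, so nothing is read from the contrast between the lists.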

How the data were processed

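RNA of GM-CSF-cultured BMDCs was sequenced by the authors (TruSeq stranded mRNA) and aligned to mm10 with STAR 2.7.3a in snakePipes 2.1.0; the deposited values are counts of reads per gene from featureCounts 2.0.0, whole numbers without normalization, in 1 table per stimulation. The annotation release, the strand setting and the treatment of reads with several matches are not given in the sources used here. Names, coordinates and exon lengths came from GENCODE M21 on GRCm38, and promoters from RefSeq (8 of 10 genes matched). The members and gene lists were chosen with earlier results of these data known. Genes were filtered with filterByExpr, scaled by TMM and tested with edgeR 4.0.16 (R 4.3.3; glmQLFit, glmQLFTest; Benjamini-Hochberg adjusted p under 0.05 over all genes), each table alone for the genotype comparison and all 8 libraries together for LPS responses and the interaction. An exact permutation test of 2 against 2 libraries cannot go below p = 0.333. Each SE is the unshrunken log2 fold change over the root of its F statistic. Intervals use 95% and cover counting error only. Fits were tested on simulated counts. Alternatives were DESeq2 1.42.0, RLE or library size scaling, count filters, a fixed coefficient of variation, a minimum fold, a replicate block and leaving out each library. From the other lists, the named genes were taken from the first 2 genes with more than 3 counts and up to 4 with the largest change past the threshold, without printing each. Genes beside a locus are named as neighbors. Genes at or near 0 (Ptgdr2, Hrh4, Ccl11, Il3, Il5, Mcpt4, Cidec, Krt19) and C1qa were named after their values were seen. A list of alternative activation genes is not reported here.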

Additional observations from a re-analysis of the deposited data

Results flagged for a closer look

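For 3 genes the difference between 3xGrk-/- and WT cells with LPS was set apart from that without by the interaction term in edgeR, fitted over all 8 libraries. The genotype differences on both sides of it served to choose the genes, so the values are a description and no p is given. On the log2 scale, the genotype difference with LPS minus that without was 3.25 for Ear2, -2.21 for Siglecf and -2.76 for Alox15. Each kept its direction in all alternatives in which it was fitted. The range was 3.13 to 3.39 for Ear2, -2.71 to -1.81 for Siglecf and -3.46 to -2.34 for Alox15. With a coefficient of variation of 0.4 the call rule was met by Ear2 but not by Siglecf and Alox15. The filter of at least 10 counts in every library left Alox15 out. Ear2 shares transcript stretches with Ear1 and Ear10, and Alox15 had 2 and 5 counts in the LPS-stimulated 3xGrk-/- libraries. With 2 libraries a group, no library could be tested for standing apart.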

How the results depend on the processing

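The number of the 10 genes called in each comparison (9 and 10 between the genotypes without and with LPS, 7 and 3 for LPS in WT and 3xGrk-/- cells, 3 for the interaction) was lower or higher by over 1.5 times in these cases. With at least 10 counts in every library, 6 were called between the genotypes with LPS and 4 for LPS in WT. That filter left 6 of the 10 genes to test between the genotypes with LPS, and all 6 were called. For LPS in WT it took out Prg3, Ccr3 and Alox15, which have few counts in 3xGrk-/- libraries. Other numbers for LPS in WT were 4 with DESeq2, 0 with a coefficient of variation of 0.4 and 0 with a minimum log2 change of 1. For LPS in 3xGrk-/- cells, 6 were called with library size scaling. For the interaction, 1 (Ear2) was called with a coefficient of variation of 0.4. Leaving out each library in turn gave 8 and 9 to 10 between the genotypes, 6 to 8 and 3 for LPS in WT and 3xGrk-/- cells and 3 for the interaction. Over all genes, 5369, 5754, 7561, 6945 and 4070 were called in the same order. A coefficient of variation of 0.4 left 448, 782, 1110, 850 and 72, a minimum log2 change of 1 left 1444, 1984, 2700, 2373 and 1375, and DESeq2 gave 3086 without LPS between the genotypes and 2643 for the interaction. Leaving out a library gave 4253 to 4788, 4460 to 5712, 6417 to 7601, 5844 to 7410 and 3328 to 4199. Library size scaling, without TMM, put the median of all genes at -0.23 in both LPS responses (-0.01 with TMM) and lowered the share of higher calls from 49.3% to 35.8% and from 50.7% to 40.9% between the genotypes and from 49.0% to 31.1% and from 50.5% to 30.2% for LPS; the summed Ear level became 401 CPM in unstimulated WT and 45.3 in LPS-stimulated 3xGrk-/- cells. Values near 0 changed sign. With library size scaling, for LPS in WT, Epx was at -0.17 and Il5ra at -0.17, and Prg2 for LPS in 3xGrk-/- cells at -0.21. Leaving out each library in turn gave ranges across 0: for LPS in WT, Epx -0.072 to 0.16, Il5ra -0.18 to 0.22 and Prg2 -0.063 to 0.0098; for LPS in 3xGrk-/- cells, Ear1 -0.58 to 0.41, Prg2 -0.056 to 0.079 and Ccr3 -0.43 to 0.043; and for the interaction, Ear6 -0.27 to 0.099, Ear1 -0.26 to 0.73 and Prg2 -0.035 to 0.099. The cause was not tested. A replicate block left 9, 10, 7, 3 and 3 of the 10 genes called and 5292, 5654, 7438, 6793 and 3884 of all genes, and changed no other call; the libraries share only a replicate number, with a correlation of their deviations of 0.0358 unstimulated and -0.0154 with LPS over 10104 genes. Depth limits Il5ra, Prg3 and Ccr3 in 3xGrk-/- cells, where each library had 6 counts or fewer.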
